A study of Anopheles gambiae with 8 samples.

Results

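Genes of the peptidoglycan recognition protein (PGRP) family and the immunodeficiency (IMD) pathway were examined in the RNA of Sua 4.0 cells, an established cell line of *An. gambiae*. They were picked by gene ID, 10 of the 13763 genes in the count table: 7 *PGRP* genes (*PGRPLC*, *PGRPLA*, *PGRPLD*, *PGRPLB*, *PGRPS1*, *PGRPS2* and *PGRPS3*), the adaptor *IMD*, the inhibitor *caspar* and the transcription factor *REL2*. Cells received the steroid hormone 20-hydroxyecdysone (20E) at 1 μM, or only the solvent, ethyl alcohol (EtOH), in equal volume, and were harvested 24 h later. For the solvent the labels of both groups give 10% ethanol, whereas the study's methods name undiluted ethyl alcohol. There were 4 libraries of 20E-treated cells and 4 of EtOH-treated cells, from 4 independent experiments in which both treatments carry the same replicate number. Both groups were the same line, with no bacterial or parasite challenge, and the only labelled difference between them was the hormone. In these data *PGRPLC* and *PGRPLA* were lower after 20E in 4 of 4 experiments, to 70.9% and 62.6% of the EtOH level in a fit that pairs the libraries, *REL2* to 80.7%, and *IMD* was at nearly the same level under both treatments. These 3 decreases passed the test only in the paired fit, where 9.11% of all genes tested passed as lower and 8.34% as higher. Being lower in 4 of 4 experiments was true of 16.2% of all genes tested. *REL2* passed narrowly (adjusted p = 0.0866 in edgeR). *PGRPLD* also passed narrowly, but as higher after 20E (log2 fold change 1.001, adjusted p = 0.0887 in edgeR). The *REL2* and *PGRPLD* results were both lost when some single experiments were left out.

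The IMD pathway is 1 of the NF-κB pathways of insect immunity. PGRPs bind peptidoglycan of the bacterial cell wall, and binding to the membrane receptor PGRP-LC passes a signal through the adaptor IMD to the NF-κB factor Relish, named REL2 in *Anopheles*, which switches on genes for antimicrobial peptides. Other PGRPs cut peptidoglycan and so damp the signal, and caspar holds REL2 inactive. In *Drosophila*, 20E acts on antimicrobial peptide genes in part through PGRP-LC, which raised the question of how these genes responded to the hormone in mosquito cells.

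The 20E libraries held 6865599 to 14878014 counts and the EtOH libraries 7761718 to 13566683, with replicate 1 the shallowest in both groups. Levels are in CPM, counts divided by each library's TMM-adjusted size, and 3 counts in a library correspond to 0.181 to 0.472 CPM. Libraries with the same number deviated together from their group means, with correlations across genes of 0.646 to 0.835. Changes were therefore read within the 4 pairs, and the quasi-likelihood (QL) test of edgeR is given without and with the replicate number as a block. Log2 fold changes are given ± the standard error (SE) implied by that test, p-values were adjusted over all genes tested, and a gene was called at an adjusted p of at most 0.1. The labels give no cell type for the line. Of 6 genes listed as blood cell and fat body markers, 4 passed the expression filter and AGAP006348 had 0 counts in all libraries. The summed level of the 6 was 1272 to 3623 CPM with 20E and 1071 to 1547 CPM with EtOH. Without collagen IV (AGAP009200) it was 1068 to 1390 CPM with 20E and 1062 to 1330 CPM with EtOH. Most of that sum was AGAP005625, with means of 974 CPM with 20E and 945 CPM with EtOH, so it says little of the other markers. The part of these markers in the results was not tested. With the block, collagen IV, listed for blood cells, was called higher after 20E (log2 fold change 4.45, adjusted p = 1.62e-05 in edgeR). AGAP004203, the only fat body marker listed, was called lower, in 4 of 4 pairs (-0.46, adjusted p = 0.0385). Of the other blood cell markers, AGAP010815 (0.89, adjusted p = 0.108) and AGAP005625 (0.028, adjusted p = 0.901) were not called. AGAP004977, below the filter, had 46 counts after 20E and 3 after EtOH. Without the block 0 of the 4 markers that passed the filter were called.

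Per kilobase of listed gene length, *REL2* was the most abundant of the 10 genes, with 17.2 ± 3.76 CPM per kb over the 8 libraries (SD). The listed length is the whole gene span, introns included, so this scale understates genes with long introns. *IMD*, *caspar*, *PGRPLA* and *PGRPLC* followed with 13.3 ± 2.84, 12.9 ± 3.49, 10.7 ± 6.23 and 8.50 ± 1.91 CPM per kb. *REL2* was above *IMD* in 8 of 8 libraries, although their ranges overlapped. *IMD* was above *caspar* in 4 of 8 libraries, so that these neighbours did not differ beyond their spread, and neither did *caspar* and *PGRPLA* or *PGRPLA* and *PGRPLC* (6 of 8 libraries each). The lowest library of *PGRPLC* (5.95 CPM per kb) was above the highest of *PGRPLB* (4.52). The genes ranked above and below this point still overlapped. In 20E replicate 1, *PGRPLD* reached 10.1 CPM per kb and *PGRPLA* fell to 2.29. *PGRPLB* and *PGRPLD* averaged 2.204 ± 1.88 and 2.12 ± 3.33 CPM per kb, with overlapping ranges. The short forms *PGRPS1*, *PGRPS3* and *PGRPS2* came last, at 0.318 ± 0.154, 0.296 ± 0.370 and 0.0569 ± 0.0856 CPM per kb.

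**Figure D1:**
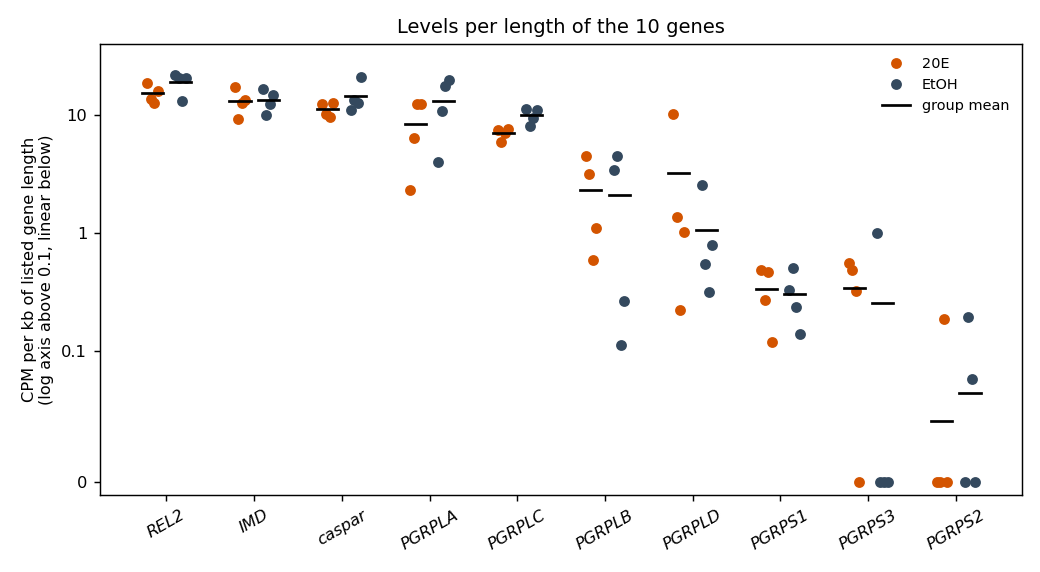
Level of each of the 10 genes per kilobase of listed gene length, in order of the mean over 8 libraries; points are libraries and black lines group means, with a log axis above 0.1 and a linear one below. The means of *REL2*, *IMD*, *caspar*, *PGRPLA* and *PGRPLC* over 8 libraries run from 17.2 down to 8.50 CPM per kb. *PGRPLB* and *PGRPLD* are lower on average. *PGRPLA* (2.29 to 19.7), *PGRPLB* and *PGRPLD* (0.223 to 10.1) spread widely and overlap, and the 3 short *PGRP* genes lie near the limit of 3 counts.

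*PGRPLC* encodes the transmembrane receptor of the pathway and lies on 2L from 12199478 to 12208633 (AGAP005203, minus strand, AgamP4). Its level was 68.6, 54.4, 64.6 and 70.0 CPM in 20E replicates 1, 2, 3 and 4, against 103.8, 74.2, 86.5 and 100.4 CPM in the EtOH replicates. The 2 groups did not overlap, the highest 20E library being below the lowest EtOH library. Among all 8180 genes tested, 4.73% had groups that did not overlap, and in 2.56% the 20E group was the lower one. The log2 ratio within the pairs was -0.60, -0.45, -0.42 and -0.52, a narrow spread. Without the block edgeR's QL test gave a log2 fold change of -0.50 ± 0.16 (SE), with an unadjusted p of 0.0115 and an adjusted p of 0.426, and *PGRPLC* was not called. The block left the fold change at -0.50 ± 0.083 (SE) and brought the adjusted p to 0.00421, so that *PGRPLC* was called. It was also called with each pair left out in turn, at adjusted p of 0.0129 to 0.0198 in edgeR. The span shares 4 bases with AGAP005202 on the opposite strand, a gene that had a log2 fold change of 0.0047 with the block.

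*PGRPLA* (AGAP005205) lies 2724 bases from *PGRPLC* on the same strand, from 12211358 to 12220758, and overlaps no other listed gene. It had 21.6, 59.8, 115.6 and 117.4 CPM in the 20E replicates, against 37.2, 101.6, 166.6 and 185.6 CPM in the EtOH replicates. The groups overlapped widely, with replicate 1 low and replicates 3 and 4 high under both treatments. Within each pair the 20E library was the lower one, with log2 ratios of -0.79, -0.76, -0.53 and -0.66. Its log2 fold change in edgeR's QL test was -0.64 ± 0.59 (SE) without the block (adjusted p = 0.999) and -0.68 ± 0.089 (SE) with it (adjusted p = 0.00108), and *PGRPLA* was called with the block. It was called with each pair left out, with log2 fold changes of -0.73 to -0.64.

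The neighbouring genes *PGRPLA* and *PGRPLC* thus both fell after 20E with the block, and their ratio varied between experiments. The ratio of *PGRPLA* to *PGRPLC* counts was 0.314, 1.10, 1.79 and 1.68 in the 20E replicates and 0.359, 1.37, 1.93 and 1.85 in the EtOH replicates. Replicate 1 of either treatment therefore held fewer *PGRPLA* than *PGRPLC* counts, and all 6 other libraries held more. The ratio was lower after 20E in 4 of 4 pairs, and this difference was not tested.

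*PGRPLD* (AGAP005552, 2L from 16977124 to 16983609), a further long family member, was the only one of the 10 genes called higher with the block. It had 65.8, 8.85, 1.45 and 6.63 CPM in the 20E replicates, against 16.4, 3.55, 2.06 and 5.16 CPM in the EtOH replicates. The 20E and EtOH levels overlapped, with replicate 1 the highest of each. Its log2 ratios within the pairs were 2.001, 1.31, -0.50 and 0.36, so that pairs 1 and 2 carried the increase and pair 3 went the other way. Without the block edgeR gave *PGRPLD* a log2 fold change of 1.61 ± 1.09 (SE) at an adjusted p of 0.999, or of -0.24 when 20E replicate 1 was left out. The blocked value was 1.001 ± 0.34 (SE) at an adjusted p of 0.0887, and the call was lost without pair 1 (log2 fold change 0.48, adjusted p = 0.437 from edgeR) and without pair 2 (0.92, adjusted p = 0.194). Its span shares 313 bases with AGAP005553 on the opposite strand, which had 11 counts after 20E and 16 after EtOH.

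*PGRPLB* (AGAP001212, 2R from 1593354 to 1595399) is known in *Drosophila* as a secreted amidase that cuts peptidoglycan and limits IMD signalling. It had 58, 94, 20 and 29 counts in the 20E replicates, against 49, 99, 3 and 6 counts in the EtOH replicates. In CPM the 20E replicates held 9.13, 6.50, 1.21 and 2.23, against 6.99, 9.25, 0.229 and 0.543 in the EtOH replicates. Replicates 1 and 2 were thus high under both treatments, and the 2 lowest libraries were EtOH replicates 3 and 4. In pairs 3 and 4 the 20E level was 5.27 times (95% exact interval of the counts 1.56 to 27.7) and 4.11 times (1.68 to 12.1) the EtOH level. In pairs 1 and 2 it was 1.31 times (0.878 to 1.95) and 0.703 times (0.524 to 0.942), and these intervals cover counting error only. Over all pairs *PGRPLB* was not called, with a log2 fold change of 0.16 ± 1.06 (SE, adjusted p = 0.999) without the block and 0.57 ± 0.42 (SE, adjusted p = 0.430) with it in edgeR.

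The 3 short *PGRP* genes were scarcely detected and did not pass the expression filter. *PGRPS1* (AGAP000536, X from 9622535 to 9623830) had 4, 5, 10 and 2 counts in the 20E replicates, against 3, 7, 4 and 2 counts in the EtOH replicates. *PGRPS3* (AGAP006342, 2L from 29969584 to 29970150) had 9 counts in all after 20E and 4 after EtOH, where all 4 came from replicate 1. *PGRPS2* (AGAP006343, 2L from 29973455 to 29974430), which lies 3304 bases from *PGRPS3*, had 3 counts in each group. A difference between treatments in these genes was not detectable at this depth.

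*IMD* encodes the adaptor that links the receptor to the signalling cascade and lies on 2L from 7194587 to 7195863 (AGAP004959). It had 21.9, 11.9, 15.98 and 17.0 CPM in the 20E replicates, against 21.3, 12.8, 15.8 and 19.0 CPM in the EtOH replicates. The levels followed the experiment and hardly the treatment, with 2 pairs slightly higher and 2 slightly lower after 20E. In edgeR's QL test the log2 fold change was -0.046 ± 0.24 (SE) without the block and -0.052 ± 0.13 (SE) with it, at adjusted p of 0.999 and 0.837. *IMD* was not called in any setting tried with or without the block, and its blocked log2 fold change stayed between -0.083 and -0.015.

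*caspar* (AGAP006473, 2L from 32629209 to 32636262), the inhibitor of REL2 activation, had 87.5, 72.3, 67.6 and 89.4 CPM in the 20E replicates, against 78.3, 94.2, 89.7 and 147.2 CPM in the EtOH replicates. It was lower after 20E in pairs 2, 3 and 4 and slightly higher in pair 1, so that the groups overlapped. edgeR gave log2 fold changes of -0.37 ± 0.22 (SE, adjusted p = 0.975) without the block and -0.35 ± 0.13 (SE, adjusted p = 0.120) with it, just outside the limit of 0.1. Without pair 1 the blocked value was -0.50 and *caspar* was called (adjusted p = 0.0176 from edgeR). Without pair 2, 3 or 4 it was not called, at -0.33, -0.33 and -0.22 (adjusted p = 0.233, 0.299 and 0.415 from edgeR).

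*REL2* (AGAP006747, 2L from 37733113 to 37744769) encodes the NF-κB factor at the end of the pathway. It had 218.0, 160.2, 147.0 and 186.4 CPM in the 20E replicates, against 256.4, 238.7, 152.8 and 240.8 CPM in the EtOH replicates. The 20E library was the lower one in 4 of 4 pairs, but in pair 3 by a log2 ratio of only -0.055, and the groups overlapped. Without the block edgeR put it at -0.32 ± 0.21 on the log2 scale (SE, adjusted p = 0.999). The blocked fit gave -0.31 ± 0.10 (SE, adjusted p = 0.0866), just inside the limit, and the call was lost without pair 1, 2 or 4 (adjusted p = 0.135, 0.273 and 0.228 from edgeR).

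**Figure D2:**
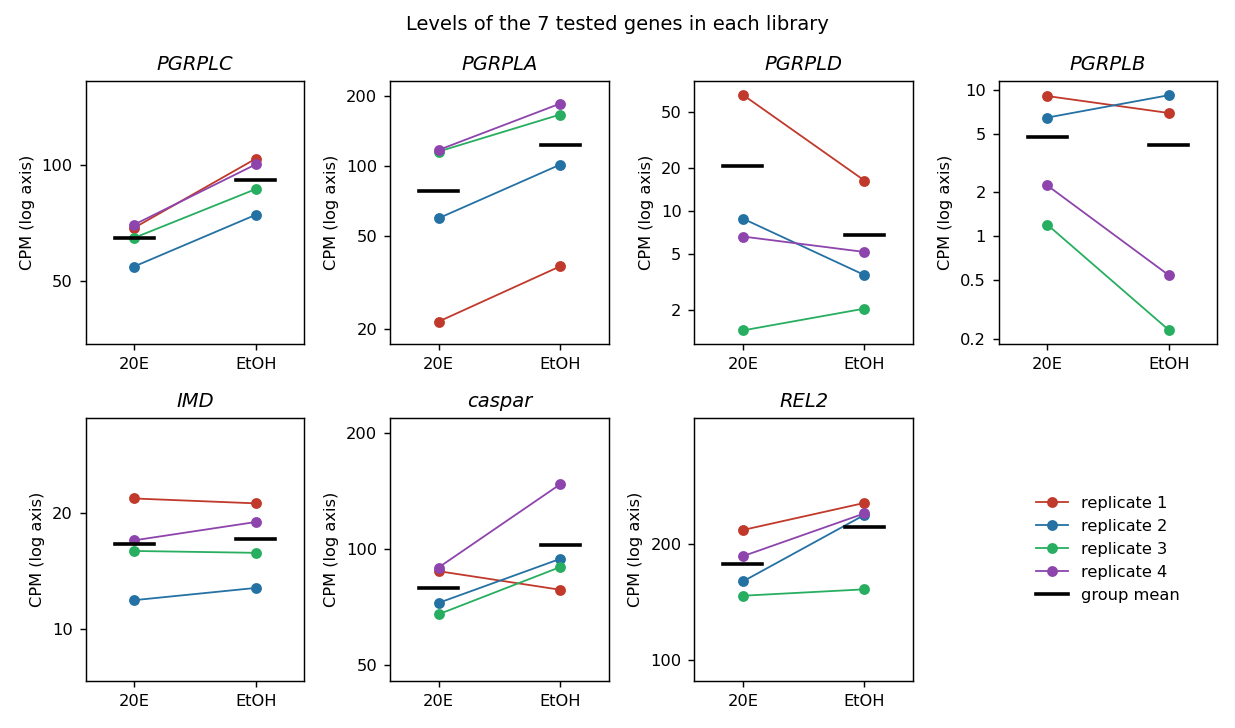
CPM of the 7 genes that passed the expression filter in the 20E libraries (left of each panel) and the EtOH libraries (right), on log axes; lines join libraries of the same replicate number and black bars are group means. *PGRPLC* and *PGRPLA* are lower after 20E in 4 of 4 pairs, and the replicate numbers of *PGRPLA*, *PGRPLD* and *PGRPLB* stand far apart under both treatments.

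**Figure D3:**
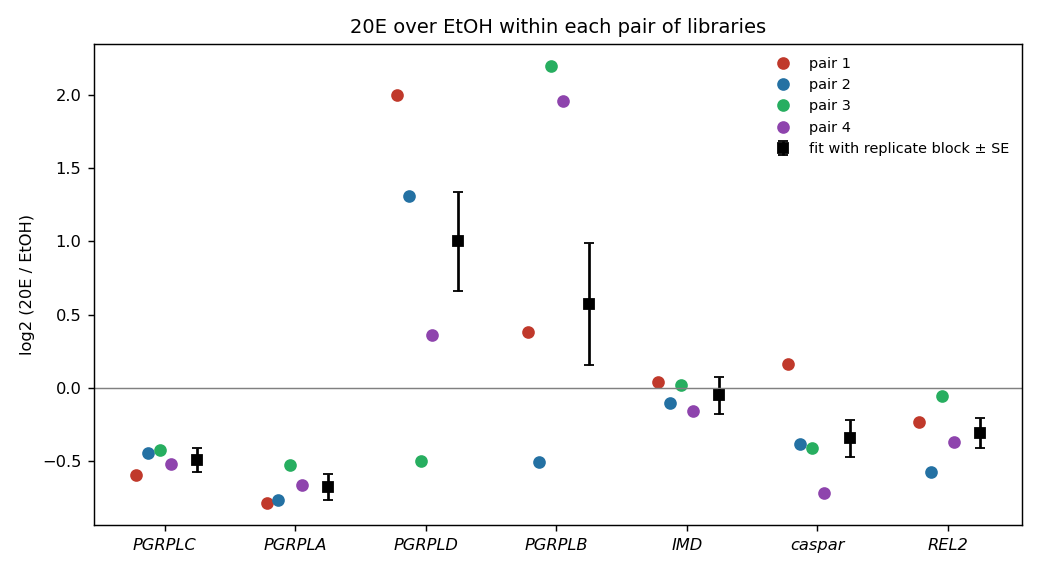
Log2 ratio of the 20E to the EtOH level within each of the 4 pairs (coloured points) and the log2 fold change of edgeR's fit with the replicate block (black squares, bars are 1 standard error). The ratios of *PGRPLC* lie between -0.60 and -0.42 and those of *PGRPLA* between -0.79 and -0.53, whereas those of *PGRPLD* and *PGRPLB* lie on both sides of 0.

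Taken as a set, 7 of the 10 genes passed the expression filter. edgeR's QL test called 0 of them without the block, against 0.795% of all 8180 genes tested, and 1 (*PGRPLC*) had an unadjusted p under 0.05, against 6.81% of all genes. Without the block 0 were also called by DESeq2, by limma-voom and by the likelihood ratio test of edgeR. These called 195 of 9340, 62 of 8180 and 147 of 8180 genes tested. With the block 3 were called lower (*PGRPLA*, *PGRPLC* and *REL2*), where 9.11% of all genes were, and 1 was called higher (*PGRPLD*), where 8.34% of all genes were, which made 4 calls against 17.4% of all genes in either direction. The median blocked log2 fold change of the 7 was -0.31, against 0.0087 over all genes tested. Being lower in all 4 pairs, as *PGRPLC*, *PGRPLA* and *REL2* were, was true of 16.2% of all genes. RNA was measured from whole cultures, so fewer cells with a transcript and less of it per cell cannot be told apart.

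Several of these genes varied widely between experiments. The highest library was 45.5 times the lowest for *PGRPLD*, 40.4 times for *PGRPLB* and 8.61 times for *PGRPLA*, but only 1.74 to 2.18 times for *REL2*, *IMD*, *PGRPLC* and *caspar*. In the blocked QL fit of edgeR all 7 tested genes differed between replicate numbers (adjusted p of 5.94e-06 for *PGRPLA* to 0.0594 for *caspar*). This was not particular to them, since 68.0% of all genes did.

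**Figure D4:**
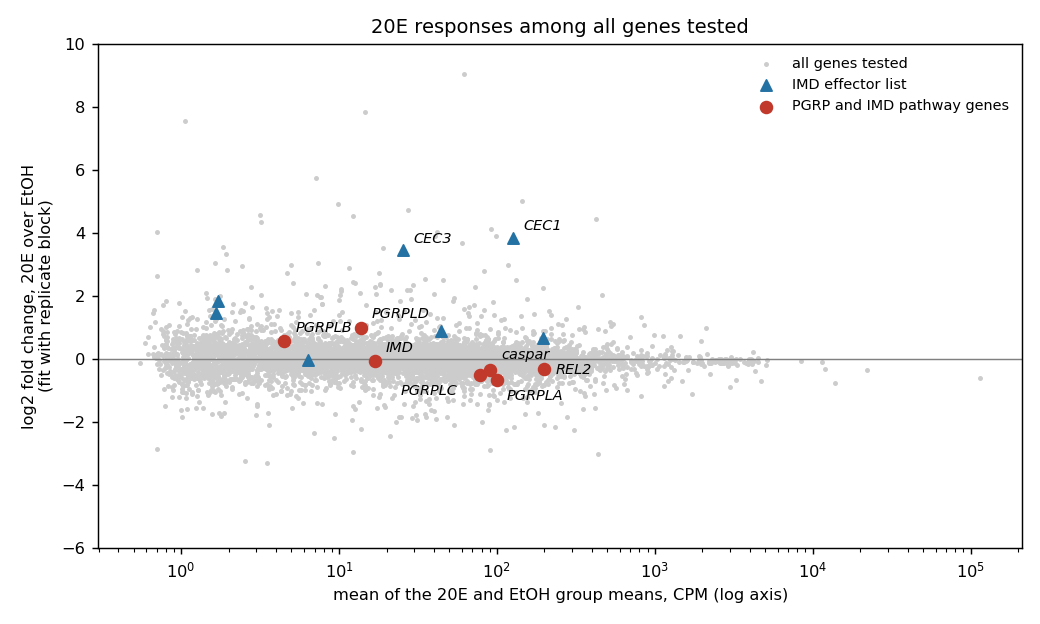
Log2 fold change of 20E over EtOH with the replicate block against mean level in CPM (log axis) for all 8180 genes tested (grey), the 7 *PGRP* and IMD pathway genes (red circles) and the 7 tested genes of the IMD effector list (blue triangles). *PGRPLC*, *PGRPLA*, *caspar* and *REL2* lie a little below 0 among the bulk of the genes, and *CEC1* and *CEC3* lie well above it.

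A list of 10 IDs for antimicrobial peptides and complement-like proteins was taken to stand for genes downstream of the pathway. Whether the pathway controls them in these cells was not tested. From the list, *CEC1* (AGAP000693) and *CEC3* (AGAP000694), both cecropins that kill bacteria, are named in the sources used here. Of the 10, 7 passed the filter and AGAP006722 and AGAP006348 had 0 counts in all libraries. Without the block edgeR's QL test called 0 of them, with 3 at an unadjusted p under 0.05, against 6.81% of all genes tested. DESeq2 called 2, the likelihood ratio test of edgeR 2 and limma-voom 0, against 195 of 9340, 147 of 8180 and 62 of 8180 genes tested. With the block 5 were called higher and 0 lower, where 8.34% and 9.11% of all genes tested were, at a median log2 fold change of 1.47 for the 7, against 0.0087 over all genes tested. Without pair 3 or pair 4 the count was 3, where 844 of 8180 and 870 of 8159 genes tested were called. The study picked *CEC1* and *CEC3* from these same libraries, so they are not independent evidence of the direction.

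*CEC1* had 882, 858, 4530 and 6014 counts in the 20E replicates, against 156, 484, 43 and 44 counts in the EtOH replicates, a blocked log2 fold change of 3.85 ± 0.99 (SE, adjusted p = 0.0336 in edgeR). *CEC3* moved alike, with a blocked log2 fold change of 3.45 ± 0.82 (SE, adjusted p = 0.0242 in edgeR). Both had their highest ratios in pairs 3 and 4. These were also the pairs with the highest *PGRPLB* ratios, which rested on EtOH counts of only 3 and 6. A link between these genes was not tested. The other 3 called with the block were AGAP011294 (log2 fold change 1.47, adjusted p = 0.0876), AGAP008645 (1.83, adjusted p = 0.0106) and AGAP007033 (0.68, adjusted p = 0.0498), all in edgeR's QL test. In the same test AGAP010815 (0.89, adjusted p = 0.108) and AGAP005620 (-0.035, adjusted p = 0.955) were not called. Of the list for the Toll pathway, the other NF-κB pathway, only the 2 genes given by ID were analysed. AGAP009515 fell by 0.50 on the log2 scale with the block (SE 0.10, adjusted p = 0.0122 in edgeR), and AGAP007938 had a log2 fold change of -0.020 (adjusted p = 0.922). Without the block neither was called (adjusted p = 0.975 and 0.999).

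The genes whose levels most resembled those of the receptor, adaptor and transcription factor were looked up over the 8 libraries, as a description, by Pearson's r of log2 CPM. They share the libraries and their depth, and r was the highest among all genes tested. The difference between treatments is part of r, so a call in the same direction follows in part from the choice. For *PGRPLC* these were AGAP005865, a fumarylacetoacetase (r = 0.976), and AGAP005273 (r = 0.961), both called lower with the block in edgeR (log2 fold changes -2.14 and -1.01, adjusted p = 1.74e-05 and 0.0720). For *IMD* they were AGAP000044 (r = 0.993) and AGAP007742 (r = 0.991), neither of them called with the block. For *REL2* they were AGAP028146 (r = 0.972) and AGAP008537 (r = 0.956), of which AGAP008537 was called lower with the block (-0.67, adjusted p = 0.0636 in edgeR) and AGAP028146 was not called (-0.34, adjusted p = 0.131).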

How the data were processed

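The authors mapped read pairs of 8 stranded mRNA libraries to the AgamP4 genome with STAR 2.5.2b, per the labels, and counted them per gene with featureCounts. The deposited values are whole-number counts for 13763 genes, not normalized. Fragments that were multimapped, chimeric or lacked an end were left out by the authors, and the strand setting of the counting is not given in the sources used here. All genes (100%) have a listed length equal to their span.

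The 10 genes, the lists and the tests were chosen with earlier results of these data known. All 10 genes are named whatever their values. Of each list the genes called without or with the block are named, and for *PGRPLC*, *IMD* and *REL2* the 2 genes of highest correlation. The RefSeq gene table at hand matched 0 of the gene IDs, so the 18 names of a list of IMD signalling genes were tied to no ID and are not analysed here. Of the Toll pathway list only the 2 genes given by ID were analysed, and its other names were left out.

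Counts were tested with edgeR 4.0.16 (R 4.3.3), by the quasi-likelihood test with TMM factors and the default filter (minimum count 10, minimum total 15), which left 8180 genes. All 8 libraries were fitted with treatment as the only term. Each SE is the size of the log2 fold change divided by the root of the test's F. The p-values were adjusted by Benjamini-Hochberg, and the study's limit of 0.1 was used for calls. Log2 ratios within pairs were taken after adding 0.0434 CPM, about 0.5 counts per library. The *PGRPLB* levels given as times the EtOH level, with their intervals, were taken without this addition. With it the log2 ratios of *PGRPLB* in pairs 3 and 4 were 2.20 and 1.96. The test of the replicate number was added after the values were seen.

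Replicate numbers mark 4 independent experiments, per the series text. Deviations from the group means correlated at 0.835, 0.728, 0.804 and 0.646 between libraries of the same number, and at most at 0.0854 between others, so the numbers were taken to pair the libraries. The biological coefficient of variation was 0.137 with the replicate block and 0.400 without it.

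Alternatives were the replicate block, DESeq2 1.42.0, limma-voom (limma 3.58.1), edgeR's likelihood ratio test, RLE size factors, 2 other filters, a limit of 0.05 and leaving out each library. The fits were tested on simulated data. Totals of 6865599 to 14878014 counts per library limit the precision for genes with few counts.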

Additional observations from a re-analysis of the deposited data

Results flagged for a closer look

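One of the 14 sets of 4 libraries, made up of the 7 tested genes under both treatments, held a library far from the others. *PGRPLD* had 65.8 CPM in 20E replicate 1, against 1.45 to 8.85 CPM in the other 20E replicates. EtOH replicate 1, of the same experiment, was also the highest of its group at 16.4 CPM. Chance alone marks about 1 in 20 such sets.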

How the results depend on the processing

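Without the block, the 7 tested genes were called in none of the settings tried, including each library left out. With the replicate block the number called was 4, with RLE size factors, with a filter of 1 CPM in 4 libraries and with DESeq2 too. It was 5 with no expression filter, the likelihood ratio test or limma-voom, 2 at a limit of 0.05, and 2 to 4 with a pair left out. Calls over all genes moved with the setting too. With the block they were 1427 of 8180, 1436 of 8180 with RLE factors, 1429 of 8004 with the 1 CPM filter and 1289 of 8745 with DESeq2. With no filter they were 1540 of 11655, and with the likelihood ratio test and limma-voom 1675 and 1592 of 8180. At a limit of 0.05 they were 985 of 8180, and with a pair left out 844 to 1305. These combinations with the block were chosen after seeing the data. *PGRPLC* and *PGRPLA* were called in 12 of 12 settings with the block, *PGRPLD* in 9, *REL2* in 8, *caspar* in 4, and *IMD* and *PGRPLB* in 0. With 1 library left out, and no block, the log2 fold change ran from -0.20 to 0.086 for *IMD*, from -0.34 to 0.92 for *PGRPLB* and from -0.24 to 2.504 for *PGRPLD*. The direction turned without 20E replicate 2, EtOH replicate 1 or EtOH replicate 4 for *IMD*, without 20E replicate 1, 20E replicate 2, EtOH replicate 3 or EtOH replicate 4 for *PGRPLB*, and without 20E replicate 1 for *PGRPLD*.

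Of the effector list 5 genes were called with the block, and 3 to 6 in its combinations (4 at a limit of 0.05 and with DESeq2, 6 with no filter, limma-voom or the likelihood ratio test). The calls over all genes in these combinations are those given above. Without it 2 were called by DESeq2 and by the likelihood ratio test, and 0 to 1 with a library left out. Of the 2 genes analysed from the Toll pathway list 1 was called with the block. Over all genes the calls were 65 without the block, 1427 with it, 147 with the likelihood ratio test, 195 with DESeq2, 32 at a limit of 0.05 and 16 to 65 with a library left out; the cause was not tested. The median log2 fold change of all genes was 0.0079 with TMM and 1.79e-04 with RLE factors. Levels per exon length were not run, as no annotation of the files' build was used. The 3 short *PGRP* genes are limited by depth.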

Other observations

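One further gene with a known tie to the pathway was looked at after its values had been seen. AGAP012751 is annotated in the study's gene table as an E3 ubiquitin ligase, defense repressor 1, which in *Drosophila* restrains IMD signalling. It had 0, 61, 75 and 112 counts in the 20E replicates, against 2, 5, 11 and 5 counts in the EtOH replicates. It was thus higher after 20E in pairs 2, 3 and 4 and at the limit of detection in pair 1. edgeR's QL test gave log2 fold changes of 3.04 ± 0.99 (SE, adjusted p = 0.458) without the replicate block and 2.96 ± 0.56 (SE, adjusted p = 0.00772) with it. The study listed AGAP012751 from these same libraries.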
